A study of Mus musculus with 222 samples.

Results

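The tumors compared here were the T cell rich and the T cell poor mammary tumors of MMTV-ErbB2 transgenic mice, 47 of each, or 94 of the 222 arrays of the series. They were picked by measured expression and not by a label. All tumor arrays with an interquartile range of at least 2.8 (log2 units) over their probe sets and a name not ending in R were scored, which left 188 tumors. The T cell score of a tumor was the mean of its z-scores for Cd3e, Cd3g and Cd8a, each z-score being taken over the 188 tumors. The 47 tumors with the highest scores formed the T cell rich group, the 47 with the lowest the T cell poor group, and the 94 between them are called middle tumors. A further 24 tumors had a narrower spread of values and are called lower-spread tumors, 2 tumor arrays were repeats named with an R, and 8 arrays were normal mammary glands.

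All scored tumors arose spontaneously in transgenic mice that carried ErbB2 under the MMTV promoter, which is active mainly in mammary epithelium. The mice were untreated and had 1 of 3 genetic backgrounds, FVB, F1 (C57BL/6 crossed with FVB) or F1BX (the backcross of F1 to FVB), in which each F1BX mouse had its own mix of FVB and C57BL/6 alleles. Tissues were collected at necropsy, and the sample labels do not give the age of each mouse. The normal glands were taken from MMTV-ErbB2 mice of the FVB and F1 backgrounds and from wild type F1 mice. RNA of whole tumors was hybridized to Affymetrix mouse gene 1.0 ST arrays, and the deposited values are log2 expression values. In such bulk samples, fewer cells of a type and less RNA per cell cannot be told apart, so "T cell rich" names a high level of 3 transcripts and not a cell count.

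T cells carry an antigen receptor whose signaling chains include the products of Cd3e and Cd3g, and cytotoxic T cells also carry the coreceptor CD8, whose alpha chain is encoded by Cd8a. Cytotoxic T cells kill target cells with perforin and granzymes when they meet peptides on MHC class I molecules. They also release interferon gamma, which raises MHC genes, the peptide loading machinery and the chemokines that attract more T cells. In breast tumors driven by ERBB2, the amount of lymphocytes differs widely between tumors.

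The 3 genes of the score spanned a narrow range in the tumors, and their levels are given as a description because they chose the groups. Cd3e (probe set 10593024) had a lowest, median and highest log2 expression of 6.53, 6.73 and 7.03 in T cell poor tumors and of 6.81, 7.13 and 7.63 in T cell rich tumors. Cd3g (probe set 10593015) had 4.87, 5.36 and 5.71 in the poor and 5.59, 5.88 and 6.32 in the rich group. Cd8a (probe set 10538993) had 5.84, 6.48 and 6.72 against 6.75, 7.31 and 7.92, so that only Cd8a separated the groups without overlap. The means differed most for Cd8a, with 6.44 ± 0.19 (SD, n = 47) in poor and 7.32 ± 0.27 (SD, n = 47) in rich tumors. Across the 188 tumors, Pearson's r between pairs of these genes was 0.515 for Cd3e and Cd3g, 0.677 for Cd3e and Cd8a and 0.670 for Cd3g and Cd8a. All 188 scored tumors lay below all 8 normal glands for each of the 3 genes, the lowest gland having 8.53 for Cd3e, 6.89 for Cd3g and 8.14 for Cd8a. Because the deposited table has no detection calls, these low levels are not shown to be above background in every tumor.

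**Figure D1:**
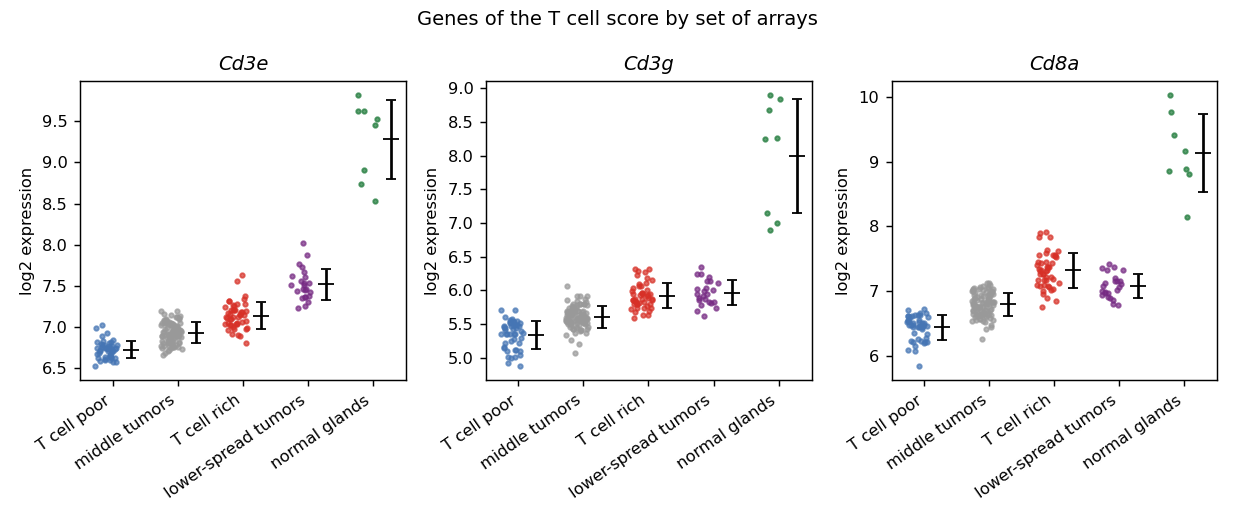
Log2 expression (y axis) of Cd3e, Cd3g and Cd8a in each array (points) of the T cell poor, middle and T cell rich tumors, the lower-spread tumors and the normal glands (x axis), with the mean and SD beside each set. The tumor sets step up in small increments because the score chose them, and the 8 glands lie above every tumor in these sets.

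The borders of the groups fell in a continuous distribution. The last tumor inside the T cell poor group, 163T3, had a score of -0.591 and the first outside it, 145T6, had -0.581. The last middle tumor below the T cell rich group, 113T3, had 0.508 and the first inside it, 289T1, had 0.515. The interquartile range of the arrays ran from 3.14 to 3.33 in poor and from 3.09 to 3.35 in rich tumors, with means of 3.25 ± 0.05 (SD, n = 47) and 3.21 ± 0.06 (SD, n = 47), so the rich arrays were slightly narrower on average.

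A few tumors stood apart. The tumor 168T1, in the poor group, had an Erbb2 level of 9.32, whereas the other 93 tumors of both groups had 11.94 or more, and its mean over the luminal epithelium genes was 7.91 against 9.89 or more in the others. The mean over 8 skeletal muscle genes was above 8 in 6 rich and 7 poor tumors. Tumors 051T1 and 063T1, labelled F1 and FVB, have names of the form used for F1BX mice. Leaving out 168T1, the muscle-rich tumors, or 051T1 and 063T1 in turn kept the counts of called probe sets within 1.5 times. List counts past that factor were those of B and plasma cells (9 to 4 called higher without the muscle-rich tumors), fatty acid synthesis (2 to 4 called lower without 168T1) and 5 lists in which the count was 2 or fewer and changed by 1. The repeat arrays 035T1R and 246T1R had higher Cd3e than 035T1 and 246T1, with 7.40 against 6.81 and 7.42 against 6.77, together with a narrower spread of all values (interquartile range 2.43 against 3.28 and 2.55 against 3.14), so levels are comparable only among arrays of like spread. With the median and the interquartile range of each array as covariates, 3973 probe sets were called higher and 4213 lower in place of the 5740 and 5104 given below. The 8 glands and the lower-spread tumors are narrow arrays too, with interquartile ranges between 1.86 and 2.62, and how much of their distance from the scored tumors comes with the spread was not tested.

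Each of the 35556 probe sets was then tested between the groups with limma, with the genetic background as a term and the mouse as a random block, and was called at a Benjamini-Hochberg adjusted p under 0.05. With these group sizes many small differences passed: 5740 probe sets (16.1%) were called higher and 5104 (14.4%) lower in T cell rich tumors, and the median log2 difference of all probe sets was 0.02. With the stricter thresholds named in the study's methods, a fold of at least 2 and an FDR no higher than 0.005, 67 probe sets (0.188%) were higher and 25 (0.0703%) lower. The groups were set by 3 genes measured on the same arrays, so a call means that a gene varied with these 3 across the tumors. A list of genes is described by its counts, to be read against these shares, and by its median. Counts in another setting are to be read against the total of that setting. With 1 tumor per mouse, 2629 of the 35556 probe sets were called higher and 2792 lower. In F1BX tumors alone, 4524 were called higher and 3932 lower. Whether a list lost more calls than all probe sets did was not tested. All differences are rich minus poor on the log2 scale, followed by the standard error.

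Other T cell genes were higher in T cell rich tumors, in small steps like those of the score. Of 21 measured genes of the receptor complex, its coreceptors and other T cell markers, 17 were called higher and none lower (median 0.17), but these genes mark the same cells as the score and are no separate evidence. Cd8b1, the beta chain of CD8, was 0.46 ± 0.03 higher and Cd2, an adhesion receptor, 0.43 ± 0.06 higher. Il2rb, a chain of the interleukin 2 and 15 receptors found on memory T cells and NK cells, had the largest difference of the list (0.87 ± 0.08). Cxcr6, a chemokine receptor of effector T cells, was 0.62 ± 0.06 higher. The general T cell chains differed less, with 0.29 for Cd3d, 0.26 for the helper coreceptor Cd4 and 0.14 for the zeta chain Cd247, and 4 genes, among them Cd27 (0.09) and Trat1 (0.05), did not pass.

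Genes of killing by T and NK cells had the largest median difference of the lymphocyte lists. Cytotoxic T cells, which Cd8a in the score marks, express many of them, so this list is no separate evidence either. Of 18 measured cytotoxic and NK cell genes, 16 were called higher and none lower, with a median of 0.30. Gzmb, which encodes granzyme B, had a lowest, median and highest level of 5.64, 6.32 and 8.06 in poor and of 6.30, 7.42 and 8.93 in rich tumors. Above the poor median lay 46 of the 47 rich tumors, although the ranges overlapped. The difference was 1.09 ± 0.13 (adjusted p = 2.99e-10 from limma). Nkg7, a granule protein of cytotoxic cells, had 5.46, 6.10 and 6.82 in poor and 6.25, 6.96 and 7.71 in rich tumors, a difference of 0.88 ± 0.06 (adjusted p = 2.86e-20 from limma). The NK receptor chain Klrd1 was 0.81 ± 0.08 higher and the chemokine Ccl5, which effector lymphocytes secrete, 0.57 ± 0.09 higher. The NK receptor Ncr1 was 0.30 higher, whereas Klrb1c, another NK receptor, did not pass (0.04, adjusted p = 0.545 from limma). Perforin (Prf1) was higher by only 0.14 ± 0.04. Interferon gamma itself (Ifng) stayed near 5.9 in both groups (medians 5.87 and 5.94), with a difference of 0.05 that did not pass (95% confidence interval -0.02 to 0.11).

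Inhibitory receptors and markers of regulatory T cells differed by small amounts. Of 11 measured checkpoint genes, 7 were called higher and none lower, a count that was 4 with 1 tumor per mouse. Cd96, an inhibitory receptor of T and NK cells, was 0.51 ± 0.09 higher and Havcr2 (TIM-3) 0.35 ± 0.07 higher. Cd96 had 5.02, 5.61 and 8.31 in poor and 5.70, 6.16 and 6.87 in rich tumors, so its highest level was in a T cell poor tumor. The same held for Tigit (0.16 ± 0.06), with highest levels of 9.09 in poor and 7.28 in rich tumors. For Havcr2 the highest level was in the rich group (9.22 against 7.97). Cd274, which encodes the ligand PD-L1, had 6.86, 7.49 and 8.58 in poor and 6.89, 7.86 and 8.72 in rich tumors, a difference of 0.32 ± 0.08 with nearly complete overlap of the ranges. Its receptor Pdcd1 (PD-1) was 0.12 ± 0.04 higher, and 4 genes, among them Ctla4 (0.10), Lag3 (0.06) and Vsir (0.20), did not pass. Of 8 regulatory T cell genes, 4 were called higher, among them Foxp3, the factor that defines these cells (0.15 ± 0.03), and the interleukin 2 receptor chain Il2ra (0.26 ± 0.05). Tnfrsf18 (GITR) was lower, by -0.26 ± 0.07.

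Targets of interferon gamma were higher in T cell rich tumors although Ifng was not. Of 15 measured genes of this response, 13 were called higher and none lower, with a median of 0.37. Gbp4, a guanylate-binding protein of cell-autonomous defense, had 6.79, 7.60 and 9.39 in poor and 7.13, 8.85 and 10.59 in rich tumors, and the difference was 1.13 ± 0.13 (adjusted p = 3.86e-11 from limma). Its relative Gbp5 was 0.72 ± 0.11 higher. The chemokines Cxcl9 and Cxcl10, which recruit T cells through the receptor CXCR3, were 0.67 ± 0.11 and 0.40 ± 0.11 higher. The transcription factor Irf1, which carries the response to many of its targets, was 0.32 ± 0.06 higher and the feedback inhibitor Socs1 0.09 ± 0.03. Irgm1 (0.24) was 1 of the 2 genes that did not pass.

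Nlrc5 encodes the transactivator of MHC class I genes and was measured by 19 probe sets, all of which were called higher, with differences from 0.37 to 1.74 and a median of 1.18. The probe set with the largest difference (10574149) had 6.53, 8.10 and 11.05 in poor and 7.41, 10.14 and 11.60 in rich tumors. The median of the rich group was above 46 of the 47 poor tumors. The probe set with the highest mean (10574100) had the smallest difference of the 19, 0.37 ± 0.04, and the cause of this spread between probe sets was not tested. Ciita, which encodes the corresponding transactivator of MHC class II genes, was 0.25 ± 0.05 higher.

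The genes that Nlrc5 and interferons are known to act on were higher in part. Of 13 measured genes of MHC class I and peptide loading, 8 were called higher and none lower (median 0.32). The immunoproteasome subunit Psmb9 had 8.20, 9.29 and 10.73 in poor and 8.64, 10.30 and 11.76 in rich tumors, a difference of 0.86 ± 0.14 (adjusted p = 1.00e-06 from limma). The peptide transporter Tap1 was 0.75 ± 0.14 higher, the immunoproteasome subunit Psmb8 0.69 ± 0.15 and the class I molecule H2-M3 0.64 ± 0.10. B2m, the light chain shared by class I molecules, had 11.80, 12.55 and 13.47 in poor and 11.91, 13.27 and 13.61 in rich tumors, a difference of 0.58 ± 0.08 (adjusted p = 3.79e-09 from limma). The proteasome activator Psme2 had a difference of -0.12 that did not pass, and Calr, a chaperone of class I assembly, had 0.08 and did not pass. The classical heavy chain genes H2-K1 and H2-D1 had no probe set with a single symbol and were not tested.

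Targets of type I interferons were higher as well. Of 19 measured genes, 15 were called higher and none lower, with a median of 0.59, and all 19 differences were above 0. Oas2, a sensor of double-stranded RNA, had 6.07, 7.48 and 9.84 in poor and 6.52, 8.49 and 10.95 in rich tumors, so the ranges overlapped over most of their length. The difference was 1.12 ± 0.21 (adjusted p = 9.63e-06 from limma). Irf7, the factor that amplifies the type I response, was 0.98 ± 0.19 higher and Ifit3, an inhibitor of viral RNA translation, 0.88 ± 0.24. The antiviral GTPase Mx1 had 0.23 ± 0.16 and did not pass, nor did Mx2 (0.35), Xaf1 (0.36) and Rsad2 (0.40). Many targets answer to both kinds of interferon, so these lists do not separate them.

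**Figure D2:**
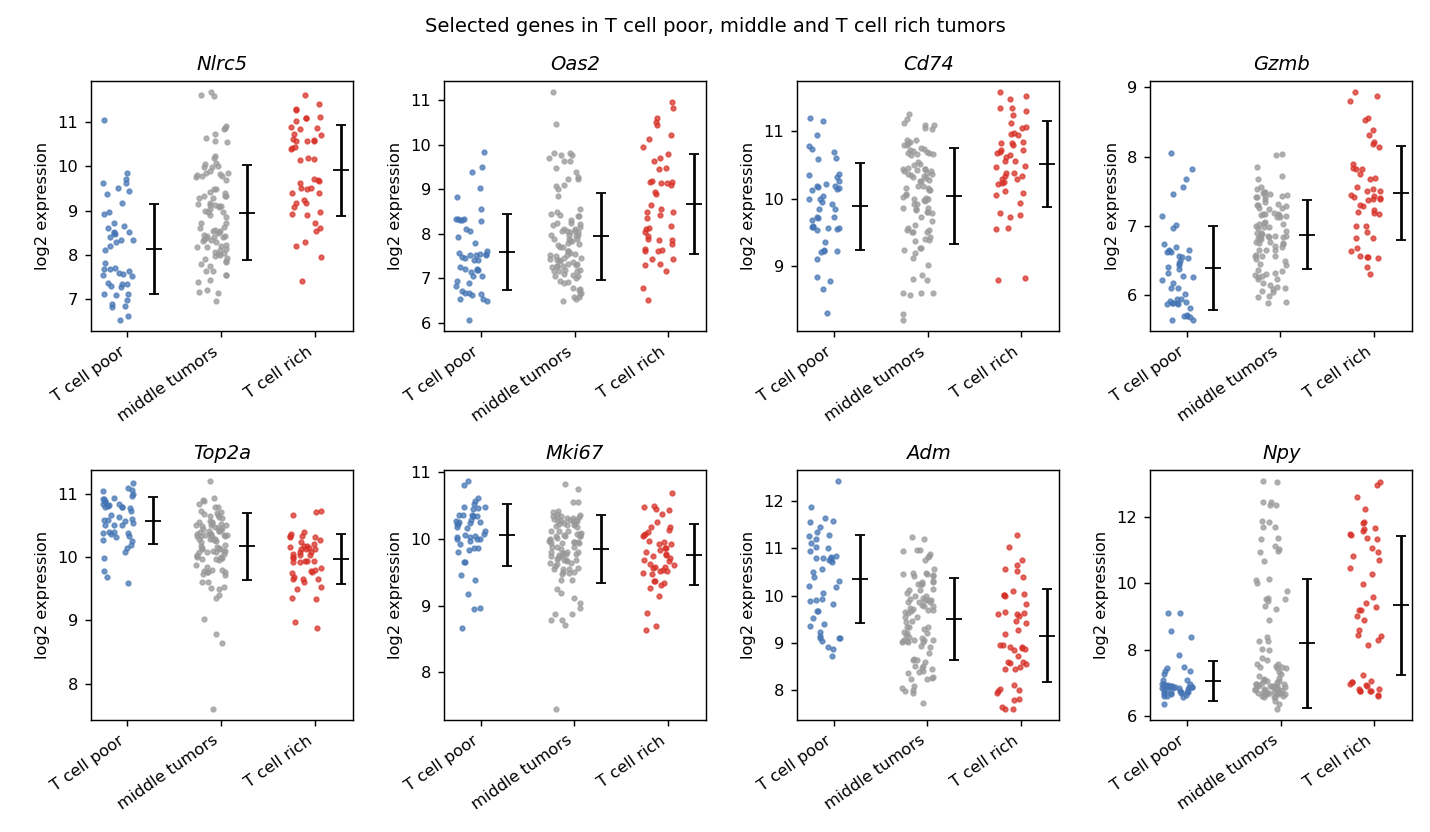
Log2 expression (y axis) of 8 genes in each T cell poor, middle and T cell rich tumor (points, x axis), with the mean and SD beside each group, Nlrc5 being shown by probe set 10574149. Nlrc5, Oas2, Cd74, Gzmb and Npy were higher in T cell rich tumors and Top2a, Mki67 and Adm lower, and for each gene the groups overlap.

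Promoter sequences of 3 of these genes are shown because they hold the motifs through which interferon factors are known to act. The 250 bases before and 50 after each gene start (RefSeq, GRCm38.p6) were searched on both strands for the interferon-stimulated response element (ISRE), written as GAAA, any 2 bases and GAAA, and for TTCNNNGAA, the gamma-activated site (GAS). The sequences are the 150 bases before the start of Ifit3 (chr19:34583379-34583528, plus strand), Gbp5 (chr3:142496784-142496933, plus strand) and Psmb8 (chr17:34198045-34198194, plus strand), with matches in capitals, an ISRE in Ifit3 and a GAS in the other two.
Ifit3: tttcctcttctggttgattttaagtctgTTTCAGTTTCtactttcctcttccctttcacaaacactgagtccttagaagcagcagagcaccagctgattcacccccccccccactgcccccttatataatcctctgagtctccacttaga
Gbp5: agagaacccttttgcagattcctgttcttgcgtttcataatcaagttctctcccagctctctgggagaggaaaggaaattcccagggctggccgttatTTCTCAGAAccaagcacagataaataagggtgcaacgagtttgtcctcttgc
Psmb8: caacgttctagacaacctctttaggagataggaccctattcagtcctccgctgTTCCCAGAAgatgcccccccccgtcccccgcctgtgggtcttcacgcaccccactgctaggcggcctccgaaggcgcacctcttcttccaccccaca

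An ISRE was found in 3.49% of all 27025 promoters. It was found in 5 of the 8 promoters available for interferon gamma targets called higher and in 6 of the 11 available for type I targets called higher. A GAS was found in 8.47% of all promoters, in 4 of those 8 and in 2 of those 11. In the whole lists an ISRE was found in 10 of 15 interferon gamma and 8 of 15 type I promoters. A GAS was found in 8 and 2 of them. Psmb8 is from the MHC class I list, where 1 of 7 available promoters of called genes held an ISRE and 2 a GAS. The ISRE and GAS matches overlapped in 21 promoters of all genes. The lists were made of known interferon targets, so these counts describe the lists, and they say nothing about whether a factor was bound in the tumors.

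MHC class II genes, which dendritic cells, macrophages and B cells express and which interferon gamma can raise in other cells, were higher with the T cell score. Of 7 measured genes, 6 were called higher and none lower (median 0.32). Cd74, the invariant chain, had 8.31, 9.92 and 11.19 in poor and 8.79, 10.56 and 11.57 in rich tumors, a difference of 0.72 ± 0.12 (adjusted p = 1.35e-06 from limma). The class II chains H2-Aa and H2-Ab1 were 0.62 ± 0.12 and 0.57 ± 0.11 higher. H2-Eb1 did not pass, and its median was 8.32 in poor and 7.47 in rich tumors while the modeled difference was 0.12 ± 0.19, with a sign that changed between settings.

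Macrophage and dendritic cell genes were higher by similar amounts. Of 15 macrophage genes, 10 were called higher and none lower (median 0.34), and with 1 tumor per mouse 5 were called higher and 1 lower. Csf1r, the receptor for the macrophage growth factor CSF1, had 8.32, 9.12 and 10.57 in poor and 8.74, 9.48 and 11.65 in rich tumors, a difference of 0.45 ± 0.09 (adjusted p = 0.000115 from limma). The lysosomal protease Ctss was 0.50 ± 0.08 higher, the complement gene C1qa 0.38 ± 0.08 and the macrophage surface receptor Adgre1 0.37 ± 0.09. Among the 5 genes that did not pass were Cd68, another macrophage marker (0.09 ± 0.11), and Mrc1 (0.14 ± 0.20). The scavenger receptor Cd163, found on a subset of macrophages, had -0.23 ± 0.17 and did not pass either. Of 13 dendritic cell genes, 7 were called higher and none lower (median 0.20), among them Clec9a (0.33 ± 0.04) and Xcr1 (0.22 ± 0.04), markers of the dendritic cells that present antigen to cytotoxic T cells. Among leukocyte chemokines and receptors 5 of 16 were higher, led by Cx3cr1 (0.44 ± 0.07), but 1 with 1 tumor per mouse and 3 in F1BX tumors alone, and Cxcr4 was lower (-0.32 ± 0.09).

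Genes of B cells, lymph nodes and granulocytes were examined because a tumor piece can include a lymph node or blood. Of 17 B and plasma cell genes, 9 were called higher (median 0.11), and the mean of the list ran from 5.59 to 6.14 in poor and from 5.63 to 6.50 in rich tumors, below the 7.09 of the lowest gland. Jchain, made by plasma cells, had 4.49, 5.08 and 7.41 in poor and 4.75, 6.05 and 9.22 in rich tumors, a difference of 1.01 ± 0.18 (adjusted p = 3.25e-06 from limma). The B cell markers differed little, with 0.18 ± 0.06 for Ms4a1 (CD20) and 0.15 ± 0.07 for Cd79a, which did not pass. By a B cell score made of Cd79a and Ms4a1, 5 poor and 13 rich tumors were among the 47 scored tumors with the highest values. Without these tumors 3590 probe sets were called higher in place of 5740, and 3 of the 17 B cell genes. The B cell count was also 3 with 1 tumor per mouse, 4 with quantile normalization and 2 with the spread of the arrays as covariates. All probe sets called higher fell as well in these settings, to 2629, 4854 and 3973. Of 9 lymph node genes 4 were called higher, including Ltb, a cytokine of lymphoid tissue (0.37 ± 0.03), and Glycam1, a ligand on lymph node vessels that mammary epithelium also makes (0.92 ± 0.34), and 2 were called with 1 tumor per mouse. The mean of the lymph node list ran from 6.00 to 6.86 in poor and from 6.07 to 7.31 in rich tumors, against 8.48 in the lowest gland. Single genes reached gland levels: Glycam1 rose to 12.36 in poor and 12.80 in rich tumors, against 12.31 in the lowest gland. Cxcl13 rose to 9.97 and 11.13, against 8.06. Ccl19 and Ccr7 reached only 7.21 and 7.11 in rich tumors, against 8.93 and 8.97. The glands are narrower arrays, so these levels are not on a like scale, and lymph node content was not tested. Of 9 neutrophil genes, 1 was called higher, Csf3r (0.29 ± 0.06), and 1 lower, S100a8 (-0.28 ± 0.09). Each is 11.1% of the list, below the shares of all probe sets (16.1% and 14.4%). None of the 8 mast cell genes was called.

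Of the stromal lists, the endothelial one held the most called genes. Of 15 endothelial genes 7 were called higher and none lower (median 0.22), and 3 were called with 1 tumor per mouse. They included Vcam1 (0.40 ± 0.09) and Icam1 (0.26 ± 0.05), adhesion molecules that activated endothelium and other cells use to hold leukocytes. The defining vessel genes Pecam1 (0.22 ± 0.10) and Cdh5 (0.21 ± 0.10) did not pass. Of 14 fibroblast and matrix genes only Tgfb3 was called higher (0.35 ± 0.10), and Col1a1, the main collagen, had 8.46, 10.51 and 11.95 in poor and 8.21, 10.39 and 13.49 in rich tumors (0.14 ± 0.18). Of 9 adipocyte genes 3 were called higher, led by the fatty acid transporter Cd36 (1.16 ± 0.25), which milk-secreting and endothelial cells also express. None of the 8 skeletal muscle genes was called, and the highest mean of that list was 12.35 in rich and 11.38 in poor tumors.

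**Figure D3:**
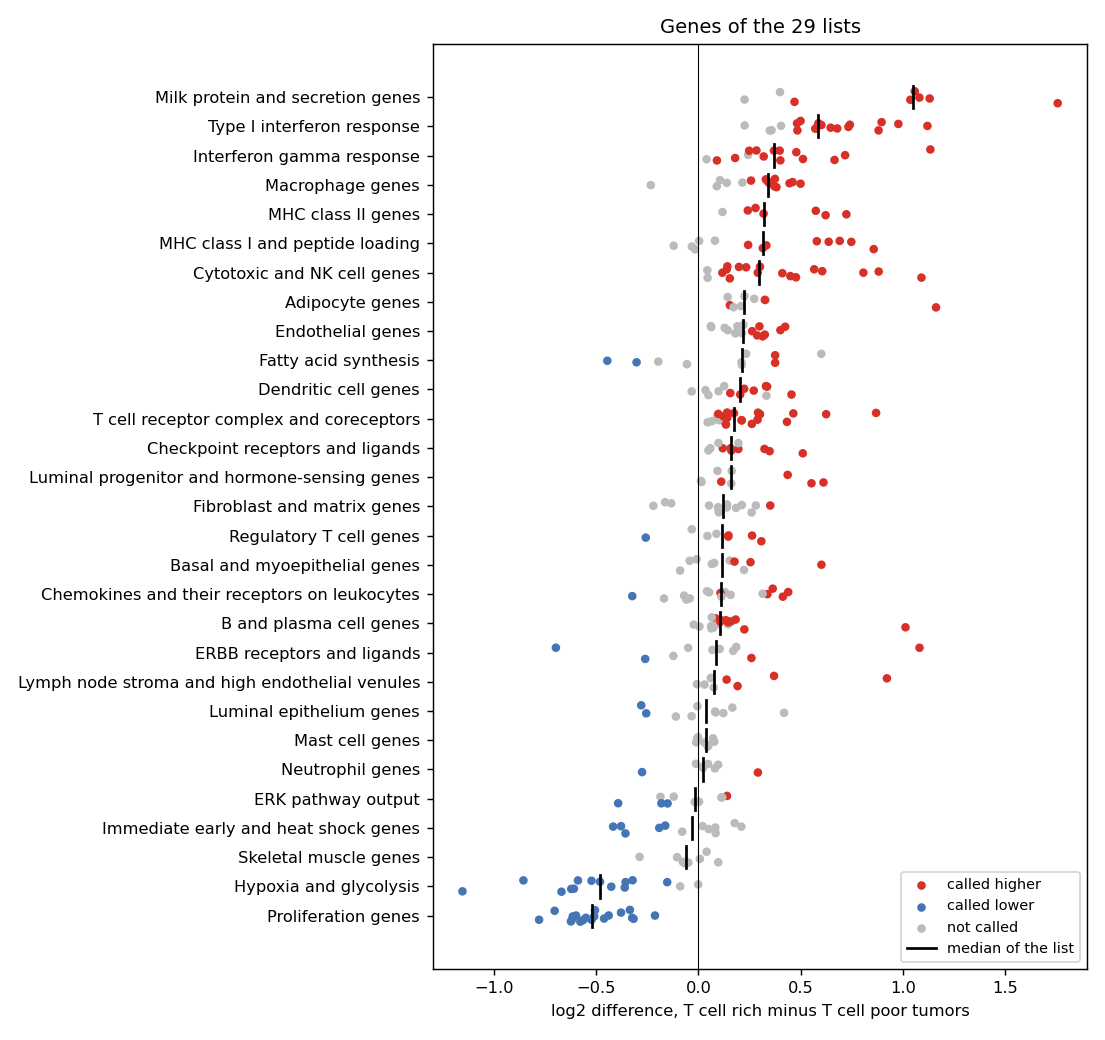
Log2 difference between T cell rich and T cell poor tumors (x axis) of each measured gene (points) of 29 lists (y axis), sorted by the list median (black bar), in red where called higher and blue where called lower. Milk protein and interferon lists lie farthest to the right, and all genes of the proliferation list lie to the left of 0.

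Proliferation genes were lower in T cell rich tumors without exception. All 19 measured genes were called lower, where 14.4% of all probe sets were, with a median of -0.52. Top2a, the topoisomerase of dividing cells, had 9.60, 10.60 and 11.17 in poor and 8.89, 10.03 and 10.72 in rich tumors. Below the poor median lay 44 of the 47 rich tumors. The difference was -0.62 ± 0.08 (adjusted p = 8.05e-10 from limma). Cdk1, the kinase that starts mitosis, had 8.78, 9.59 and 10.07 against 7.79, 9.01 and 9.99, a difference of -0.62 ± 0.08 (adjusted p = 1.70e-09 from limma). Rrm2, which supplies nucleotides for replication, and the spindle checkpoint kinase Bub1 differed most (-0.78 ± 0.13 and -0.70 ± 0.11). The replication helicase subunit Mcm2 was lower by -0.51 ± 0.07. The replication clamp Pcna differed least (-0.21 ± 0.06), and the proliferation marker Mki67 was lower by -0.32 ± 0.09. Between 17 and 19 genes of the list stayed called lower in the 15 other settings at the same threshold.

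The promoters of Top2a and Cdk1 are shown for the elements that cell cycle genes share. TTTGAA, the cell cycle genes homology region (CHR), and CCAAT, the box bound by NF-Y, were searched on both strands as above. The sequences are the 150 bases before the start of Top2a (chr11:99024190-99024339, minus strand) and Cdk1 (chr10:69352913-69353062, minus strand), read along the gene, with both motifs in capitals.
Top2a: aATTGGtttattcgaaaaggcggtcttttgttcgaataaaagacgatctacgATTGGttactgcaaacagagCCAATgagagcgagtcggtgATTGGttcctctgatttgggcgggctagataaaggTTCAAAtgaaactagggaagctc
Cdk1: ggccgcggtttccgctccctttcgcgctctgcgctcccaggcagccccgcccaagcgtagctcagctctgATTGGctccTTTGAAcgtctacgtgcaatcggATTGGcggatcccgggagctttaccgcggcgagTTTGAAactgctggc

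Within these stretches Top2a had 1 CHR and 4 CCAAT boxes and Cdk1 had 2 of each. A CHR was found in 8 and a CCAAT box in 15 of the 17 available promoters of called proliferation genes, against 18.1% and 37.9% of all promoters. In the whole list they were found in 8 and 16 of 18, so the counts describe the list. They say nothing about whether a factor was bound, and the promoters shown were picked because they hold both motifs. The CHR and CCAAT matches overlapped in 40 promoters of all genes.

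Genes of hypoxia and glycolysis were also lower in T cell rich tumors. Of 15 measured genes 13 were called lower and none higher, with a median of -0.48, and between 9 and 13 were called lower in the 15 other settings at the same threshold. Adm, a vessel-relaxing peptide induced by low oxygen, had 8.72, 10.50 and 12.42 in poor and 7.60, 8.95 and 11.29 in rich tumors, and the difference was -1.15 ± 0.20 (adjusted p = 3.05e-06 from limma). Bnip3, which directs mitochondria to autophagy, had 9.92, 11.27 and 12.40 against 9.39, 10.26 and 11.78, a difference of -0.85 ± 0.13 (adjusted p = 2.05e-07 from limma). In both genes the median of the rich tumors was at least 1 log2 unit below that of the poor tumors, with overlapping ranges. The carbonic anhydrase Car9 was lower by -0.67 ± 0.16, the vessel growth factor Vegfa by -0.62 ± 0.10 and the glycolysis enzyme Pgk1 by -0.48 ± 0.06. The glucose transporter Slc2a1 (-0.09 ± 0.08) and 1 glycolysis enzyme gene did not pass.

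The promoters of Bnip3 and Car9 are shown for ACGTG, the core of the element bound by hypoxia-inducible factors (HIF). The sequences are the 150 bases before the start of Bnip3 (chr7:138909507-138909656, minus strand) and Car9 (chr4:43506876-43507025, plus strand), with matches on either strand in capitals.
Bnip3: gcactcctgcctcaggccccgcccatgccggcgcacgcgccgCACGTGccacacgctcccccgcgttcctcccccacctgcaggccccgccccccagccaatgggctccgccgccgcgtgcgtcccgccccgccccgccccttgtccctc
Car9: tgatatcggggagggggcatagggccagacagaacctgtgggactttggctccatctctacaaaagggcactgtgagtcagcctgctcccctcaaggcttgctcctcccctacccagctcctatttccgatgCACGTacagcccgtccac

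Bnip3 held 2 overlapping matches, 1 on each strand, and Car9 held 1. The core was found in 8 of the 12 available promoters of hypoxia genes called lower and in 19.7% of all promoters. In the whole list it was found in 9 of 15, so the count describes the list. It says nothing about whether a factor was bound, and the promoters shown were picked because they hold the core.

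Genes of the mammary epithelium were compared next. Erbb2 had 9.32, 12.39 and 12.74 in poor and 11.94, 12.47 and 12.80 in rich tumors, and the difference of 0.10 ± 0.08 did not pass (95% confidence interval -0.05 to 0.26). Of 10 luminal epithelium genes none was called higher and 2 lower (20%), near the 14.4% of all probe sets called lower, and the list median was 0.04. Krt8, a luminal keratin and 1 of these 2, differed by -0.28 ± 0.06, while Epcam had 0.17 ± 0.13 and did not pass. Of 9 luminal progenitor and hormone-sensing genes 4 were called higher, and 2 with 1 tumor per mouse. Gata3, the luminal transcription factor, had 8.32, 11.16 and 11.82 in poor and 10.68, 11.82 and 12.18 in rich tumors, a difference of 0.55 ± 0.09 (adjusted p = 1.30e-06 from limma). The estrogen receptor Esr1 was 0.61 ± 0.12 higher and the receptor kinase Kit 0.44 ± 0.12.

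Milk protein and secretion genes had the largest median of the 29 lists, 1.05. Of 8 measured genes 6 were called higher, but 2 in F1BX tumors alone, 2 with 1 tumor per mouse and 2 without the tumors high in B cell genes. Btn1a1, a protein of the milk fat globule, had 5.92, 8.55 and 12.37 in poor and 6.48, 11.41 and 12.95 in rich tumors, a difference of 1.76 ± 0.39 (adjusted p = 0.000231 from limma). Both groups held tumors near either end of this range. The casein gene Csn2 differed by 1.06 ± 0.39 and Xdh, which milk fat secretion requires, by 0.47 ± 0.11.

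Among ERBB receptors and ligands 2 of 10 genes were called higher and 2 lower, near the shares of all probe sets (16.1% and 14.4%). Erbb4, the receptor linked to lactation, had 5.49, 8.32 and 10.07 in poor and 6.16, 9.36 and 10.43 in rich tumors, a difference of 1.08 ± 0.25 (adjusted p = 0.000388 from limma) that did not pass with 1 tumor per mouse, and Egfr was 0.26 ± 0.07 higher. The ligand Hbegf was lower by -0.70 ± 0.12, and so was Tgfa (-0.26). Of 11 genes of ERK pathway output 1 was called higher and 3 lower, with Etv4 the lowest (-0.39 ± 0.08). Fatty acid synthesis genes were called in both directions, 2 of 10 each, again near the shares of all probe sets. The desaturases Scd1 (0.38 ± 0.09) and Scd2 (-0.44 ± 0.07) were on opposite sides. Of 12 immediate early and heat shock genes 5 were called lower and none higher, including Fos (-0.42 ± 0.10) and Egr1 (-0.38 ± 0.10), and 1 was called lower with 1 tumor per mouse. Of 10 basal and myoepithelial genes 3 were called higher, and none with 1 tumor per mouse.

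Outside the lists, the genes with the largest differences were mostly not leukocyte genes. Slc6a2, the noradrenaline transporter, had 5.80, 6.36 and 9.92 in poor and 6.23, 9.39 and 11.77 in rich tumors. Its difference of 2.15 ± 0.29 (adjusted p = 7.37e-09 from limma) was the largest of any named gene. Npy, the neuropeptide Y gene, had 6.37, 6.89 and 9.12 in poor and 6.61, 9.20 and 13.07 in rich tumors, a difference of 1.99 ± 0.29 (adjusted p = 4.71e-08 from limma). All 47 poor tumors lay below the rich median of Npy, whereas 8 rich tumors lay below the poor median. Vsnl1, a neuronal calcium sensor, had 5.40, 5.90 and 7.65 against 5.63, 8.24 and 10.80, a difference of 1.88 ± 0.24 (adjusted p = 1.17e-09 from limma). The retinol dehydrogenase Rdh12, the transcription cofactor Eya1, the secretoglobin Scgb1b27, the calcium-binding protein Efhd1, the peptide hormone Cck, the interferon-inducible GTPase Iigp1 and Pakap followed, with differences from 1.43 for Pakap to 1.83 for Rdh12. Together with Btn1a1 and Nlrc5 these are the 12 named genes with the largest increases.

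The 12 named genes with the largest decreases follow. Cpe, the carboxypeptidase that trims peptide hormones, had 8.40, 11.76 and 12.53 in poor and 7.03, 9.46 and 12.46 in rich tumors, a difference of -1.68 ± 0.29 (adjusted p = 3.18e-06 from limma). Fetub, a protease inhibitor of the fetuin family, had 6.74, 11.69 and 12.90 against 6.04, 9.55 and 12.88, a difference of -1.64 ± 0.35 (adjusted p = 0.000148 from limma) that did not pass with 1 tumor per mouse. The ranges of both genes overlapped almost fully, although the medians lay over 2 log2 units apart. Mgarp, a mitochondrial protein of steroid-making and oxygen-deprived cells, had 5.36, 7.08 and 9.05 against 4.93, 5.46 and 6.98, a difference of -1.31 ± 0.15 (adjusted p = 6.36e-11 from limma), and here the rich tumors stayed below the poor median. Unc79, the ion channel Trpm3, the peptidoglycan receptor Pglyrp1, the glutathione peroxidase Gpx2, the placental growth factor Pgf, the hyaluronan synthase Has3, the surface protein Cd177, Adm and Dlgap1 completed them, with differences from -1.44 for Unc79 to -1.14 for Dlgap1.

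Tumors that did not enter the groups were then examined. Among the 94 middle tumors, a limma slope on the T cell score called 7 probe sets higher (0.0197%) and 36 lower (0.101%), with 1725 and 1954 at an unadjusted p under 0.05. The 7 include Cd3e, Cd3g and Cd8a, the 3 genes that make up the score, so these calls are no result. The range of scores is short there, and each slope is given as log2 units per unit of score. Of the hypoxia and glycolysis genes 4 of 15 were called lower, Adm with a slope of -1.30, Vegfa with -0.72, Egln3, an oxygen-sensing hydroxylase, with -0.60 and Pgk1 with -0.40, and all 15 slopes were below 0. Pgf (-1.83) and Mgarp (-1.16) were called lower too. Of the other lists, 2 T cell genes, Il2rb and Cxcr6, were called higher and no gene lower. None of the 19 proliferation genes passed in these tumors (median slope -0.25), although none had a slope above 0. All 19 type I interferon genes and all 7 MHC class II genes had slopes above 0, with medians of 0.28 and 0.38, and none passed. Other lists turned in these tumors without any gene passing. Of the 15 endothelial slopes 3 were above 0, and of the 14 fibroblast slopes 1 (median -0.38), while all 8 skeletal muscle slopes were above 0 (median 0.94).

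The 24 lower-spread tumors, 6 F1 and 18 F1BX, were scored among themselves on arrays of their own. Their names F1_6T1 and F1_27T1 resemble those of the scored tumors F06T1 (poor) and F27T1 (rich), and whether these are the same mice is not given. There limma called no probe set in either direction, while 1298 were higher and 1626 lower at an unadjusted p under 0.05. The 1298 include the 3 genes of the score itself. The 7 MHC class II genes again had slopes above 0 (median 0.49), 5 of them with an unadjusted p under 0.05. The 19 type I interferon genes had slopes above 0 (median 0.34), with 3 at that level. Of the 15 interferon gamma genes 13 had slopes above 0, with 7 at that level. None of the 19 proliferation genes had a slope above 0 (median -0.12), with 4 at that level. The hypoxia genes were on both sides, with 6 of 15 slopes above 0 and a median of -0.03. Without F1_6T1 and F1_27T1, the numbers of slopes above 0 were 7 for MHC class II, 19 for type I interferon, 1 for proliferation and 8 for hypoxia genes. None of these slopes passed after adjustment over all probe sets, and the difference between the sets was not tested.

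**Figure D4:**
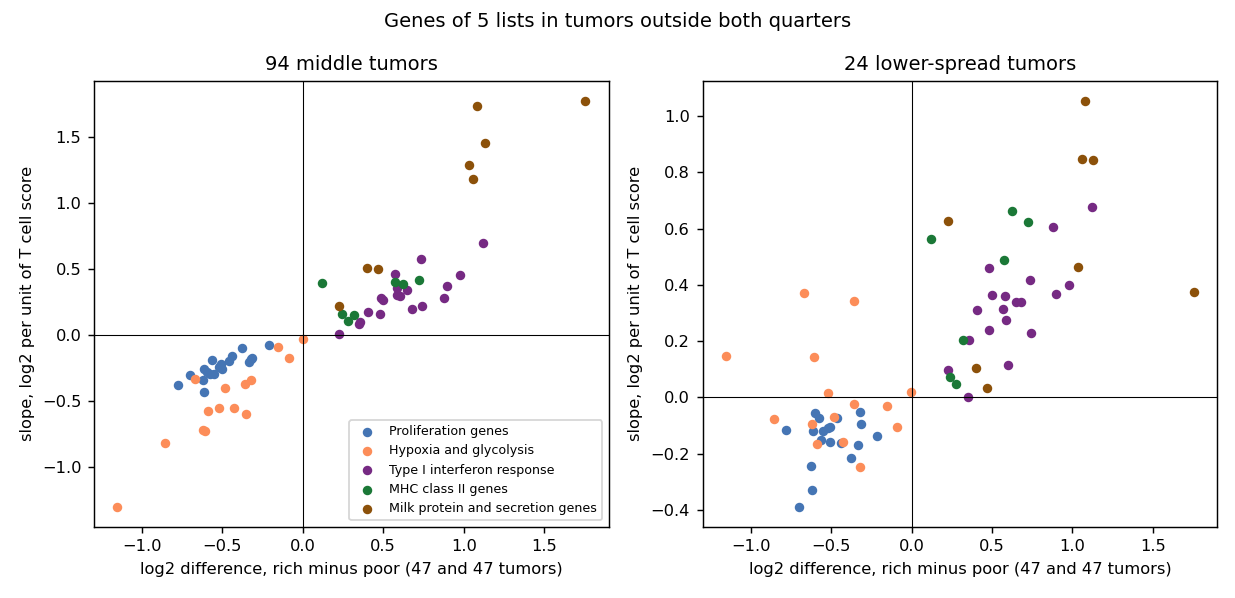
Slope on the T cell score (y axis, log2 units per unit of score) in the 94 middle tumors (left) and the 24 lower-spread tumors (right) against the log2 difference between T cell rich and poor tumors (x axis), 1 point per gene of 5 lists. Proliferation genes lie below 0 and type I interferon, MHC class II and milk genes at or above 0 in both panels, and hypoxia genes lie below 0 on the left but on both sides of 0 on the right.

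No difference in the mean T cell score between genetic backgrounds passed, which does not show that the backgrounds are alike. T cell rich tumors were 7 of 26 from FVB mice, 6 of 22 from F1 and 34 of 140 from F1BX, and T cell poor tumors were 2, 9 and 36. The lowest, median and highest scores were -0.82, -0.03 and 1.68 in FVB, -1.86, -0.36 and 1.78 in F1 and -2.03, -0.05 and 2.95 in F1BX tumors, so that the ranges overlapped. With 1 mean per mouse, the score was 0.15 ± 0.68 (SD, n = 22 mice) in FVB, -0.31 ± 0.85 (SD, n = 16) in F1 and -0.06 ± 0.78 (SD, n = 93) in F1BX. The largest of the 3 differences, F1 minus FVB, was -0.46 (two-sided permutation test, p = 0.0715, adjusted p = 0.215 over the 3 pairs). The other 2 differences had adjusted p-values of 0.254 in the same permutation test. With Cd3e alone as the score, F1 minus FVB was -0.68 (permutation test, p = 0.0241, adjusted p = 0.0724 over the 3 pairs). The difference between rich and poor tumors was also compared between F1BX and F1 mice by a limma interaction, which called no probe set (1025 at an unadjusted p under 0.05). FVB had only 2 poor tumors, so the group effect was not compared there, and a difference in slopes between F1BX and FVB over all scored tumors called none (lowest adjusted p = 0.069, 941 at an unadjusted p under 0.05).

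**Figure D5:**
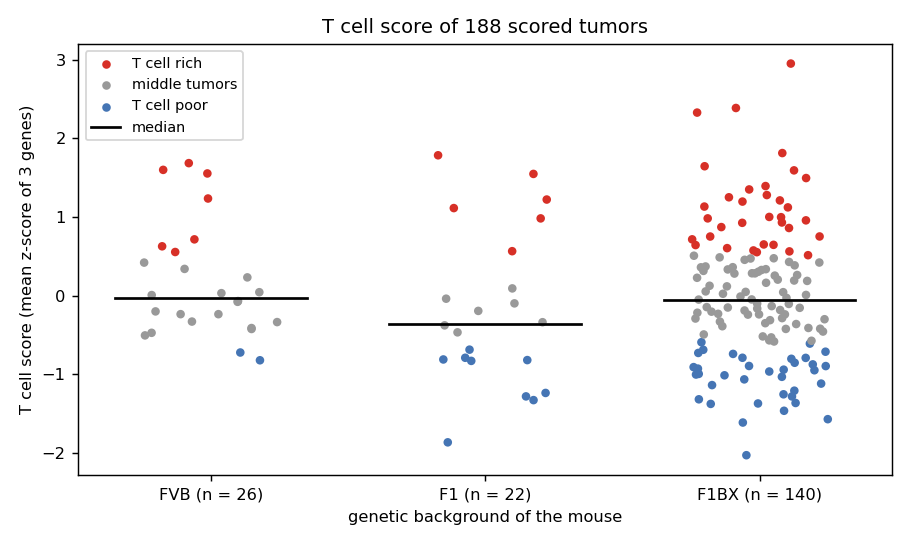
T cell score (y axis, mean z-score of Cd3e, Cd3g and Cd8a) of the 188 scored tumors (points) by genetic background of the mouse (x axis), colored by group, with the median as a black line. All backgrounds hold T cell rich and T cell poor tumors, with medians of -0.03, -0.36 and -0.05 in FVB, F1 and F1BX.

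Tumors from the same mouse often had different scores. In the 38 mice with at least 2 scored tumors (95 tumors), the intraclass correlation of the score was -0.11, and the median difference between a pair was 0.78, where the SD of all scores was 0.86. In 8 mice 1 or more tumors fell in each group. Mouse 117 had 1 T cell poor tumor, with a score of -0.69, and 3 T cell rich tumors, with 1.21, 1.25 and 1.59. Mouse F21 had 1 poor tumor at -0.79 and 2 rich tumors at 1.55 and 1.78. Rich minus poor differences within these 8 mice, tested with limma on 1 difference per mouse, called 0.0900% of all probe sets higher and 0.340% lower, among them 6 list genes higher and 5 lower, with 2475 and 2896 probe sets at an unadjusted p under 0.05. All 19 proliferation genes had a mean difference below 0 (median -0.63), and the mean of the list was lower on the T cell rich side in all 8 mice. The mean of the MHC class II list was higher on the rich side in 8 mice and that of the macrophage list in 7. The interferon gamma and type I interferon lists were each higher in 5 of the 8 mice, and the hypoxia list was higher in 3, although 14 of its 15 genes had a mean difference below 0. The mouse correlation of all probe sets in the comparison was 0.15.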

How the data were processed

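The deposited log2 expression values, 1 per array for each of 35556 probe sets, were made by the authors with RMA in Expression Console (version not stated in these sources). RMA pulls low values toward a floor, which compresses differences of weakly expressed genes such as those of T cells. Interquartile ranges were 3.04 to 3.35 in scored tumors and 1.86 to 2.62 in all other arrays. Whether all arrays were normalized as one set is not stated, so these sets may not share a scale. Platform annotation gave 1 gene symbol for 21789 probe sets, several for 1621 and none for 12146. A gene was read from its probe set with the highest mean among those with 1 symbol, and 359 of 390 list genes were measured. Precision is limited by the number of tumors, as arrays carry no read depth.

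Groups were compared with limma 3.58.1 in R 4.3.3 (lmFit and eBayes), with background as a fixed term, the mouse as a random block (duplicateCorrelation on every 10th probe set) and Benjamini-Hochberg adjustment over all probe sets. SAM, used in the study's methods, cannot take these terms and was not run. Slopes on the score were fitted in the same way. Scores of backgrounds were compared by permutation of mouse means (100000 resamples, scipy 1.17.1). Tumors of a mouse are separate tumors, and mice are the independent units.

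The tumors, the 29 gene lists and the tests were chosen with earlier results of these data known. Named genes are the score genes, list genes, Erbb2 and the 12 with the largest differences each way among called probe sets with 1 symbol, without predicted genes and immunoglobulin or T cell receptor segments. The B cell score used Cd79a and Ms4a1. Alternatives were larger groups from the same score, a slope over all scored tumors, Cd3e alone, no block, 1 tumor per mouse, no background term, F1BX only, a filter on low values (mean of at least 6), quantile normalization, array spread as covariates, removal or adjustment for B cell genes and stricter thresholds. Leaving out 168T1, muscle-rich tumors, or 051T1 and 063T1, the comparison within mice and the lower-spread slopes without F1_6T1 and F1_27T1 were added after seeing the data. Tested on simulated data with the design of the comparison of rich and poor tumors (35556 probe sets), changes of 0.25, 0.5 and 1 log2 unit were called in 76.1%, 94.0% and 98.5% of cases. Promoters came from RefSeq (GRCm38.p6), 1 per gene.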

Additional observations from a re-analysis of the deposited data

How the results depend on the processing

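The counts of probe sets and list genes called between rich and poor tumors stayed within 1.5 times of the main counts except in the following settings. With 1 tumor per mouse, 2629 probe sets were called higher, 2792 lower, and 98 list genes higher. Without the tumors high in B cell genes, 3590 were called higher. With the stricter thresholds of the methods, 67 were higher and 25 lower, with 7 list genes higher and 1 lower. Some of these settings use fewer tumors, and the cause of the smaller counts was not tested. The difference in score between F1 and F1BX mice changed sign in the lower-spread tumors (0.2454 against -0.25, exact permutation p = 0.491). The gene signs and lost calls that follow leave out Cd68, Mrc1 and Tigit. In F1BX tumors alone, Cd68 and Mrc1 had differences of -0.0297 and -0.0018, and Tigit did not pass (limma adjusted p = 0.116). Among named genes, the sign changed only for genes that did not pass: Cd79a with the B cell score as covariate (-0.0344), Klrb1c in F1BX tumors only (-0.0046), H2-Eb1 without the background term (-0.0472), with the B cell score (-0.0321) and without muscle-rich tumors (-0.0049), and Col1a1 with Cd3e alone (-0.0919), with 1 tumor per mouse (-0.1374), with array spread as covariates (-0.0765) and without the tumors high in B cell genes (-0.1861). Of the 15 settings at the same threshold, the call was lost in 8 for Socs1, 7 for Ms4a1, 6 for Glycam1, 5 for Pdcd1, 4 for Csn2, 3 for S100a8 and 2 each for Car9 and Pcna. With 1 tumor per mouse alone it was also lost for Cd177, Cxcr4, Dlgap1, Egln3, Egr1, Erbb4, Fetub, Gpx2, Kit, Tgfa and Tnfrsf18, and in 1 other setting each for Mki67, Prf1 and Tgfb3. Within the 8 mice with both kinds of tumor, a comparison added after seeing the data, 0.0900% of all probe sets were called higher and 0.340% lower, with 6 list genes higher and 5 lower. By replicate number, no paired analysis was possible because the labels' numbers do not pair tumors of the groups. Without the mouse block 5625 probe sets were called higher and 5071 lower. Small differences of genes near the low end of the values, such as Ifng and Trat1, may not be detectable on these arrays.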
